A study of Mus musculus with 12 samples.

Results

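The Kit-positive early erythroid progenitors of the developing mouse liver were examined as 5608 cells out of 184493 single-cell barcodes. A barcode entered the analysis with at least 1000 unique molecular identifiers (UMIs, counted RNA molecules) and at most 15% of them mitochondrial. It was called a Kit-positive erythroid cell when it held at least 1 UMI of Kit, at least 1 UMI of 2 or more of the 4 genes Klf1, Epor, Car1 and Gata1, and no UMI of Pf4 (a platelet lineage gene) or Mcpt8 (a basophil gene). The cells were thus selected by the UMI counts of these 7 genes, whose values describe the gate, and no test of them is given.

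Whole livers came from intercrosses of Jag1Ndr/+ mice, in late gestation (embryonic stage E16.5) or at postnatal day 3 (P3). Ndr (Nodder) is a missense allele of Jag1, a ligand of Notch receptors, present in all cells of the animal, and the groups were Jag1+/+ (wt), Jag1Ndr/+ (het) and homozygous (hom). The design text names 2 individuals per genotype and stage. Jaundice was used to find the homozygous pups, and dead cells were removed from every dissociated liver before droplet capture.

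Red cell production in the fetal liver runs from stem and multipotent cells through burst-forming and colony-forming erythroid progenitors to erythroblasts that fill with hemoglobin and lose their nucleus. Kit, the receptor of stem cell factor, keeps early progenitors dividing, and the erythropoietin receptor (Epor) takes over their survival signal through Jak2 and Stat5. Gata1, with its partner Zfpm1, and Klf1 switch on the heme, globin and membrane genes, while Gata2, Meis1 and Fli1 belong to the earlier stem and megakaryocyte programmes. Around birth the site of blood formation moves from the liver to the bone marrow.

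Of the 12 deposited samples, 9 libraries could be used, 5 at E16.5 and 4 at P3. The matrices labelled E16_wt2 and E16_het2 were identical in every entry and were counted once, so that library's genotype is either wild type or heterozygous. At P3, the matrices labelled P3_wt1 and P3_hom1 shared 19927 barcodes, and these were taken out of P3_hom1. All 15754 barcodes of P3_het2 were also in P3_wt2, and P3_hom2 shared 18105 barcodes with P3_wt1 and 16145 with P3_wt2. P3_het2 and P3_hom2 were therefore not used, the genotypes of P3_wt1 and P3_wt2 are unclear, and no genotype comparison was made at P3. After these steps no pair of libraries shared more than 1 gated barcode. Whether the 4 libraries at P3 come from separate animals is not established, although each is counted as 1 animal below. Values are listed below in the order E16_wt1, E16_wt2 (also E16_het2), E16_het1, E16_hom1, E16_hom2, and then P3_wt1, P3_wt2, P3_het1 and the remainder of P3_hom1.

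Several technical facts went with stage and cannot be told apart from it. TrypLE, a protein-digesting reagent, was used at E16.5 only, and the file headers name different software versions and different gene lists for the 2 stages, with 22519 genes in common. The summed UMIs of the gated cells were 10472134 to 13447287 per library at E16.5 and 5898881 to 14168142 at P3. A gated cell held a median of 8998 to 29680 UMIs in the embryonic libraries and of 13337 to 23934 UMIs in those of P3. Sex went with stage only in part. E16_het1 and E16_hom2 had high levels of Xist, whereas E16_wt1, E16_wt2, E16_hom1 and all 4 libraries at P3 expressed the Y-linked gene Ddx3y.

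The label was then checked against the marker genes. Levels are given as CPM, here UMIs summed over the gated cells of a library and scaled to a total of 1000000 UMIs outside the 8 globin genes. B cells, which do not make these transcripts for themselves, were read in the same libraries as a measure of RNA free in the suspension, by a gate of at least 2 UMIs of Cd79a, at least 1 of Cd79b and none of Kit.

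Klf1, an activator of red cell genes, was detected in 81.8 to 89.2% of gated cells at E16.5 and in 95.2 to 96.9% at P3. In B cells it was detected in 38.1 to 53.4% at E16.5 and in 6.83 to 14.9% at P3, at median depths of 6317 to 7741 and 2575 to 5420 UMIs, lower than in the gated cells. Epor was found in 58.0 to 80.2% and 46.7 to 74.8% of gated cells at the 2 stages, against 18.8 to 28.7% and 2.29 to 3.38% of B cells. Every gate gene was thus found in a larger share of gated cells than of B cells at both stages, but at E16.5 a B cell often held one too. Because a gated cell is deeper and was chosen for these UMIs, the excess itself is no finding.

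Kit had levels of 167, 204, 173, 144 and 217 CPM in the 5 libraries at E16.5 and 134, 158, 185 and 96.8 CPM at P3, so the stages overlapped. Klf1 had 204, 183, 223, 237 and 171 CPM at E16.5 and 205, 214, 268 and 273 CPM at P3, and also overlapped. Gata1, the factor that commits cells to the red lineage, averaged 93.3 CPM at E16.5 and 135 CPM at P3, against 42.1 and 24.3 CPM in B cells. The stages stood just apart for Gata1, with 98.0 CPM in the highest embryonic library and 112 CPM in the lowest at P3.

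Car1, an early red cell carbonic anhydrase, differed most between stages among the gate genes. Its level was 130, 101, 94.8, 127 and 115 CPM at E16.5 and 865, 875, 704 and 1028 CPM at P3, with no overlap. It was also higher at P3 in erythroid cells without Kit, at 177 CPM against 652 CPM, and was 44.2 and 62.2 CPM in B cells. Epor went the other way, from 105, 133, 120, 108 and 115 CPM at E16.5 to 66.9, 46.4, 51.9 and 44.4 CPM at P3, again without overlap. Of all genes tested between stages, 44.6% had library ranges that did not overlap, 14.5% with P3 higher and 30.1% with P3 lower. Because the gate selected cells by these genes, nothing is read from their separation. The gate gene differences are plotted by library and cell gate for the 4 genes.

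**Figure D1:**
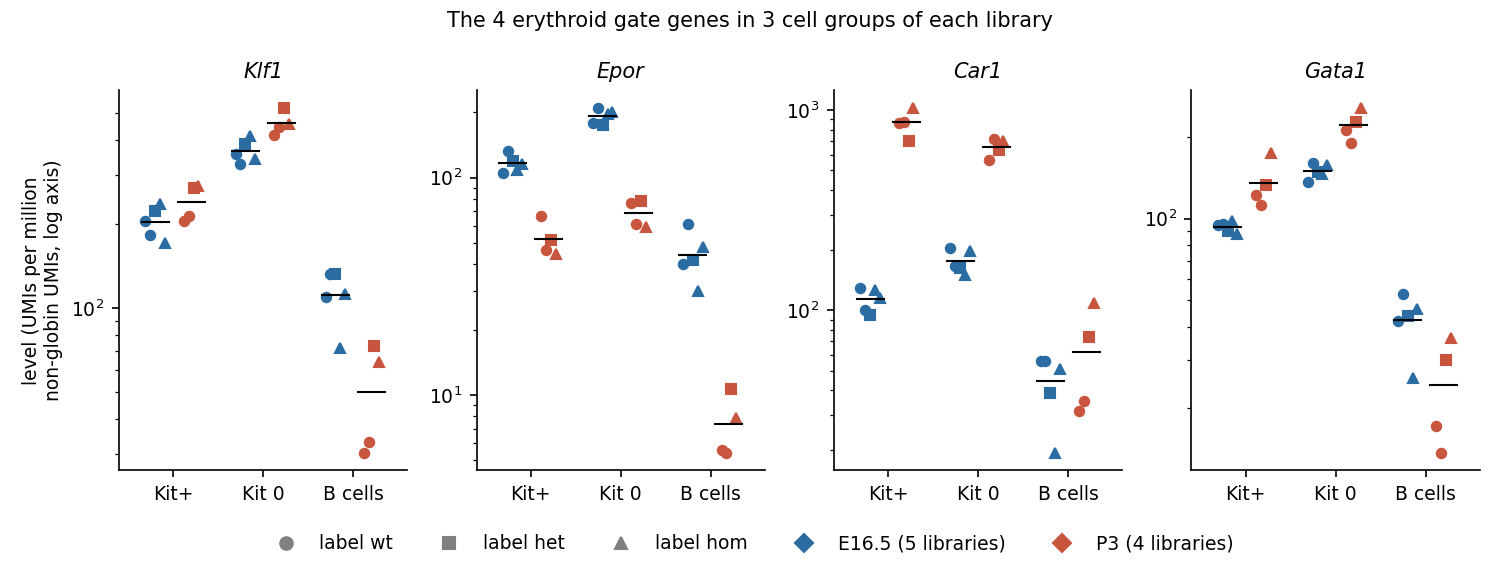
Levels of the 4 gate genes Klf1, Epor, Car1 and Gata1 (y axis, CPM, log scale) in Kit-positive erythroid cells, Kit-zero erythroid cells and B cells; each point is a library, coloured by stage. Car1 in Kit-positive cells averages 114 CPM at E16.5 and 868 CPM at P3, and B cell levels of Klf1, Epor and Gata1 lie below those of the Kit-positive cells.

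The start regions of the gate genes were searched for the GATA motif AGATAA and for CCACACCC, a form of the CACCC box that Klf1 binds, on both strands (TTATCT and GGGTGTGG), in RefSeq windows from 250 bases before to 50 bases after each transcription start (GRCm38.p6). The windows of Kit, Klf1 and Gata1 held neither string, and no window was at hand for Car1. Epor held the GATA string on the opposite strand, 54 bases before its start, within chr9:21963527-21963826 (minus strand). The surrounding bases are shown because this is the match among the windows searched, with the match in capitals, 5′ to 3′ along the gene:
Epor: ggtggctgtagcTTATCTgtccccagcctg
Of 32851 windows of this length, 11.2% held the GATA string and 3.56% the CACCC string, so a match is a description of the sequence and not evidence of a site in use.

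At E16.5 many gated cells sat close to the limits of the gate. Cells with all 4 genes made up 26.8, 11.4, 15.8, 31.5 and 9.29% of the gated cells at E16.5, and 56.3, 39.1, 27.8 and 35.1% at P3. A single UMI of Kit was the whole Kit evidence in 42.3 to 66.8% of the cells at E16.5 and in 29.3 to 59.9% at P3. In E16_wt1, 276 cells were inside with exactly 2 of the 4 genes, and 427 Kit-positive cells were outside with 1. In the same library 311 gated cells had 1 UMI of Kit, while 5857 cells met every other condition with none. No gated cell had under 1200 UMIs, so the depth limit removed none near it. Just over the mitochondrial limit lay 10, 70, 31, 5 and 40 otherwise gated cells at E16.5 and 2, 0, 1 and 0 at P3. Cells that met the Kit and erythroid conditions but held Pf4 numbered 129, 231, 179, 102 and 273 at E16.5. At P3 these were 308, 211, 97 and 112.

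RNA of other lineages was frequent in the embryonic cells of the gate. By sets of marker genes chosen after seeing the data, 43.0, 46.7, 35.4, 36.5 and 40.5% of the gated cells at E16.5 held RNA of another lineage above a set share, and 14.3, 12.6, 8.95 and 13% at P3. B cell RNA was the most frequent kind at E16.5 (16 to 22.9% of the cells, against 0.931 to 3.74% at P3), followed by promyelocyte RNA (7.53 to 14.7% and 2.17 to 2.49%) and neutrophil RNA (9.77 to 14.6% and 4.37 to 8.29%). The doublet caller Scrublet marked 7.18 to 11.8% of the gated cells at E16.5 and 10.6 to 18.3% at P3. The gene lists, and many of the named genes, are therefore also given for the 2154 cells at E16.5 and 1715 at P3 that held no such RNA, called the cleared cells. Doublets, free RNA, cells of mixed identity and Kit-positive cells of another lineage that passed on free erythroid RNA cannot be told apart by these sets. The gate may thus hold different mixtures of cells at the 2 stages.

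The marker sums show how far clearing went. The 7 B cell markers summed to 542 to 1323 CPM at E16.5 and 62.8 to 127 CPM at P3 in all gated cells, and to 35.6 to 63.3 and 41.7 to 78.0 CPM in the cleared cells. The 9 hepatocyte markers summed to 2433 to 6368 CPM at E16.5 and 96.6 to 477 CPM at P3, and in the cleared cells still to 547 to 1687 CPM against 96.2 to 183 CPM. The sets used for clearing share genes with these marker lists, so lower sums are fixed by the clearing itself. The hepatocyte markers stayed higher at E16.5 with no overlap. None of the B cell or hepatocyte markers was at 0 over the gated cells.

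Kit-positive erythroid cells were a small share of each liver library. They were 3.19, 4.86, 2.75, 2.18 and 3.22% of the barcodes at E16.5 and 2.64, 3.20, 2.95 and 2.14% at P3. The means were 3.24% ± 1.00 (SD, n = 5) and 2.73% ± 0.456 (SD, n = 4), and the stages overlapped (two-sided exact permutation test, p = 0.397; 5 against 4 libraries can reach 0.0159). Without E16_wt2 the difference shrank from -0.505 to -0.0990 percentage points. The sign of this difference depended on the gate. In cleared cells the mean share was 1.90% at E16.5 and 2.40% at P3 (exact permutation p = 0.111), and with 3 of 4 genes required it was 1.51% and 2.23% (exact permutation p = 0.0317).

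As a share of the erythroid gate, Kit-positive cells were 9.35, 12.2, 9.41, 10.5 and 9.46% at E16.5 and 27.7, 23.4, 14.6 and 9.99% at P3. The P3 libraries ranged widely, and the P3_hom1 remainder lay inside the embryonic range. The mean rose from 10.2% ± 1.24 (SD, n = 5) to 18.9% ± 8.08 (SD, n = 4) with an exact permutation p of 0.0476. In cleared cells the stages stood apart, with means of 7.89% and 19.8% (exact permutation p = 0.0159, the smallest possible). Thinned to 2000 UMIs per cell, which left out no barcode at E16.5 and 0 to 3784 per library at P3, the means were 3.12% and 5.07% (exact permutation p = 0.222). Leaving out single libraries gave exact permutation p-values between 0.0357 and 0.107, above 0.05 in 8 of 9 cases, the exception being P3_hom1. The difference thus did not hold up under every setting.

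**Figure D2:**
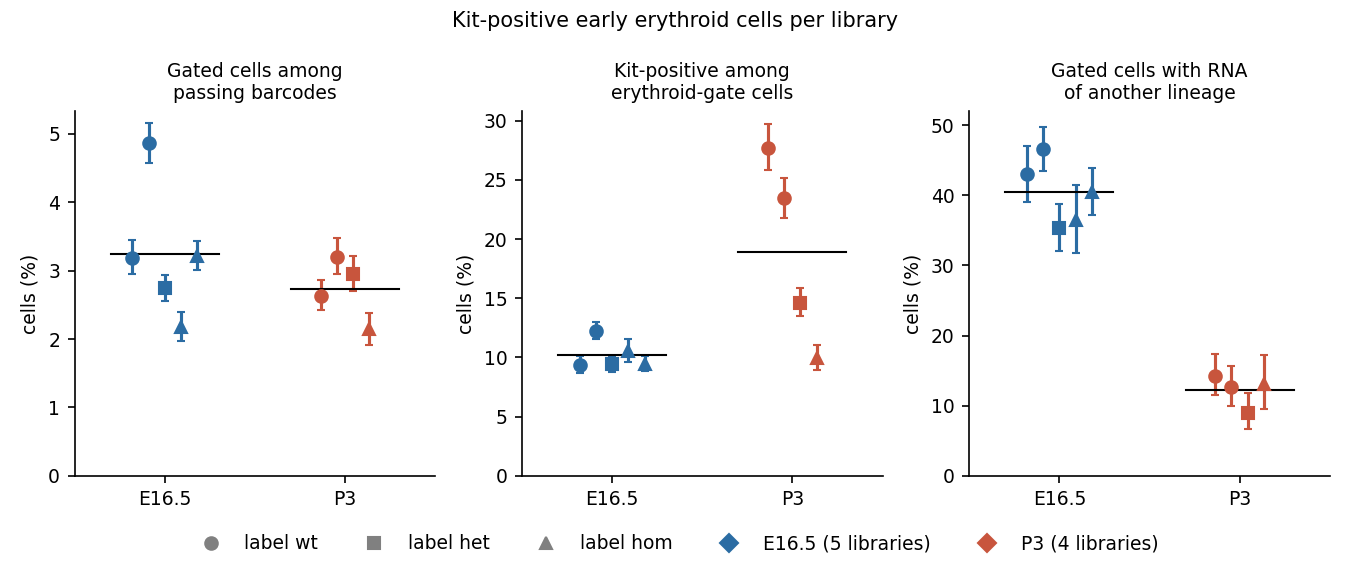
Shares by library (points with 95% exact binomial intervals, which cover counting error only; lines are stage means): Kit-positive cells as a percent of all barcodes, Kit-positive cells as a percent of erythroid-gate cells, and gated cells with RNA of another lineage, with the marker shape giving the label and the colour the stage. The share with RNA of another lineage is 35.4 to 46.7% in the embryonic libraries, above the 8.95 to 14.3% of the P3 libraries.

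Within the gate, cells differed in how much globin RNA they held. The median share of UMIs from the adult globin genes was 9.59, 15.6, 21.2, 5.21 and 25.0% at E16.5 and 0.246 to 0.457% at P3. B cells of the same libraries held 16.4 to 29.9% and 0.423 to 0.815%, and in 8 of the 9 libraries the gated cells had the lower median. In erythroid cells without Kit this share was 31.1 to 63.1% in embryonic libraries and 24.1 to 41.8% in those of P3.

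When the gated cells of each library were ordered by globin share and split into 3 equal bins, Alas2 and Slc4a1 followed that order. Alas2, which starts heme synthesis in red cells, averaged 101 CPM in the lowest bin and 1287 CPM in the highest at E16.5, and 9.65 and 267 CPM at P3. Slc4a1, the band 3 anion exchanger, went from 361 to 2405 CPM and from 9.66 to 236 CPM. B cells held 480 CPM of Alas2 and 1059 CPM of Slc4a1 at E16.5, levels between those of the lowest and the highest bin, and 350 and 232 CPM at P3. The part of free RNA in this order was not tested. Both genes, with Tfrc, Car2, Hemgn and Mki67, were higher in the top bin than in the bottom bin in 5 of 5 libraries at E16.5 and in 4 of 4 at P3.

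Myc ran against the globin order, and other progenitor genes did not do so throughout. Myc, which drives growth, went from 134 to 58.2 CPM at E16.5 and from 89.5 to 62.5 CPM at P3, lower in the top bin in every library. Myb, a factor needed for definitive progenitors, was lower in 4 of 5 libraries at E16.5 and in 4 of 4 at P3. Cd34, a stem and progenitor surface protein, was lower in 3 of 5 libraries at E16.5 and higher in 4 of 4 at P3. Depth went with these bins: in E16_wt1 the median UMIs were 34607, 14744 and 8755 from the lowest to the highest bin, and in P3_wt1 26799, 23207 and 21850. Cells with RNA of another lineage made up 22.6 to 59.7% of the lowest bin and 10.2 to 47.0% of the highest at E16.5, but 4.79 to 11.6% and 13.7 to 22.2% at P3.

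The comparison of stages asked how the cells passing the same gate differed between E16.5 and P3. Counts summed per library were fitted with edgeR's quasi-likelihood test, and p-values were adjusted by the Benjamini-Hochberg method over all 11496 genes tested. A gene could pass the count filter through the libraries of either stage alone. Where the other stage was nearly empty, the direction of its change was then fixed in advance. At an adjusted p under 0.05, 57.3% of all genes changed, 27.7% higher at P3 (3184 genes) and 29.6% lower (3404 genes). In cleared cells the background was 44.7% of 10309 genes (21.9% higher, 22.8% lower). With the animals' sex as a term in the fit, 2542 of the 11496 genes were higher and 2935 lower. Of the 3184 genes higher in all cells, 3161 were tested in cleared cells and 2142 were also higher there, and of the 3404 lower genes 2590 were tested and 2011 were also lower.

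So broad a change called for a reference in the same libraries. The stage change in Kit-positive cells minus that in B cells was therefore tested with the library as a block. This alternative was chosen after seeing the data. Of 12269 genes, 55.0% passed (28.4% higher, 26.6% lower). With cleared gated cells, 31.0% of 11763 genes passed (14.7% higher, 16.2% lower). B cells express many of the genes below themselves. For those genes the difference compares the stage changes of 2 cell types rather than a signal with free RNA. For other genes the difference need not remove RNA that came from other cells. The hepatocyte genes Alb and Afp differed by -2.23 and -2.31 (-0.65 and -0.69 with cleared cells, not called). A call in this difference therefore does not show that the gated cells made the RNA. All 3 criteria were met in the same direction by 1168 of the 3161 higher and 888 of the 2590 lower genes that were tested in cleared cells. Counts for gene lists below are to be read against the share of all genes called in the same comparison, and the median log2 change of all genes was -0.01. The fitted log2 scale and the CPM levels differ by a median of -0.22, the log2 ratio of CPM being the lower. Adjusted p-values below are from edgeR, and P3 is compared with E16.5 throughout.

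Genes of stem and multipotent progenitors were mostly lower at P3. Of 16 tested, 12 fell and 1 rose (median log2 change -1.94), and in cleared cells 10 of 14 fell and 1 rose (median -1.70). Procr, with 74 UMIs at E16.5 and 3 at P3, passed the count filter through the embryonic libraries alone, so only a fall could be called. Relative to the change in B cells, 12 of 16 were lower and 1 higher, but these 12 were not all the genes that fell. Csf1r and Ly6a were not called between stages. They were lower relative to B cells, which held 11.7 and 60.4 CPM of Csf1r and 1.57 and 10.0 CPM of Ly6a. Cd48 and Hoxa9 fell but were not called relative to B cells (adjusted p = 0.476 and 0.668). Of the 16, 8 also fell further than in erythroid cells without Kit, a comparison in which 12.9% of all genes were lower. Only 4 of these (Cd27, Hoxa9, Mpo and Sox4) did so with cleared cells, where 840 of all 11071 genes were lower. Cd34 was not called there (difference -0.77, adjusted p = 0.393). Mpo is also a promyelocyte marker, and promyelocyte RNA was more frequent at E16.5, as given above. It was among the genes used for clearing, so nothing is read from its value in cleared cells. The mast cell genes Cpa3 (log2 change -3.19; -3.04 in cleared cells) and Ms4a2 (-2.09) fell too, while the basophil gene Prss34 was not called (0.68). The part of such cells in this result was not tested.

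Cd34 had levels of 38.3, 51.0, 26.3, 17.5 and 49.0 CPM at E16.5 and 5.22, 4.86, 2.74 and 1.74 CPM at P3. Every embryonic library was above every P3 library (log2 change -2.97 ± 0.36 SE, adjusted p = 7.82e-05). The change was -3.18 in cleared cells and -3.90 relative to B cells, whose mean level was 3.35 CPM at E16.5 and 6.18 CPM at P3. Cd34 was found in 9.79 to 14.9% of gated cells at E16.5 and in 1.79 to 5.64% at P3, against 0.621 to 1.53% and 0.999 to 2.39% of B cells. At P3 the share in gated cells overlapped the B cell background.

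Angpt1, an angiopoietin made by stem and progenitor cells, had 10.7, 12.1, 7.89, 6.82 and 11.8 CPM at E16.5 and 1.81, 1.91, 1.22 and 1.21 CPM at P3. Its log2 change was -2.37 (adjusted p = 2.98e-05) and reached -2.98 in cleared cells. Hlf, a transcription factor of stem cells, had 8.50, 15.2, 9.14, 7.62 and 14.9 CPM at E16.5 and 1.67, 1.51, 0.761 and 1.21 CPM at P3 (log2 change -2.77, adjusted p = 3.53e-05; -3.37 in cleared cells). Neither gene overlapped between stages, and both had similar B cell levels at the 2 stages (1.86 and 2.13 CPM for Angpt1, 1.86 and 1.55 CPM for Hlf).

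Sox4, a factor of lymphoid and other progenitors, averaged 103 and 19.9 CPM, a log2 change of -2.11 that shrank to -1.40 in cleared cells. B cells held more of it, 467 and 283 CPM. Flt3, the cytokine receptor of multipotent and lymphoid progenitors, averaged 9.35 and 1.02 CPM (log2 change -2.88, adjusted p = 0.000105; -3.32 in cleared cells). Ly6e was the member that rose, from 158 to 236 CPM in the embryonic libraries to 316 to 646 CPM at P3 (log2 change 1.28; 1.61 in cleared cells).

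Transcription factors moved in both directions. Of 27 tested, 6 rose and 13 fell (median -0.30), and 5 and 12 of 26 did so in cleared cells. The 6 that rose were Zfpm1, Gfi1b, Zbtb7a, Nr3c1, Cbfa2t3 and Lyl1, the last of which was not called in cleared cells. Among the 13 that fell were factors of stem cells and megakaryocytes.

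Zfpm1, the Gata1 partner also called Fog1, had 142, 136, 131, 145 and 140 CPM at E16.5 and 221, 279, 279 and 307 CPM at P3. The embryonic libraries lay close together and below all 4 at P3 (139 ± 5.41 and 271 ± 36.3 CPM, log2 change 1.19 ± 0.12 SE, adjusted p = 3.02e-05). Its change was 0.79 in cleared cells and 0.78 relative to B cells. Gfi1b, a repressor needed for red cells and platelets, rose from 48.8, 36.8, 44.6, 64.8 and 33.9 CPM to 123, 121, 130 and 147 CPM (log2 change 1.71, adjusted p = 5.06e-05; 1.22 in cleared cells). B cells held 19.7 and 15.6 CPM of Gfi1b, and the change relative to them was 2.14. Both genes were also higher at P3 in erythroid cells without Kit, and a difference from that change did not pass the test (adjusted p = 0.175 for Zfpm1 and 0.507 for Gfi1b).

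Meis1, a stem cell homeobox factor, had 14.9, 13.8, 10.3, 7.18 and 16.2 CPM at E16.5 and 2.39, 2.87, 1.83 and 1.56 CPM at P3. The stages did not overlap (log2 change -2.22, adjusted p = 6.84e-05; -2.78 in cleared cells). Fli1, a factor of megakaryocytes and endothelium, averaged 47.9 and 5.27 CPM (log2 change -2.87), Mecom 3.17 and 0.150 CPM (-4.00) and Runx1 89.7 and 31.6 CPM (-1.26). Gata2 had 17.7, 13.4, 6.73, 14.6 and 13.6 CPM at E16.5 and 7.04, 5.58, 3.8 and 5.03 CPM at P3, with 1 embryonic library inside the P3 range (log2 change -1.03, adjusted p = 0.00495). These 5 factors also fell in the cleared cells. Myb was not called, at 235 and 180 CPM (log2 change -0.16, adjusted p = 0.319).

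**Figure D3:**
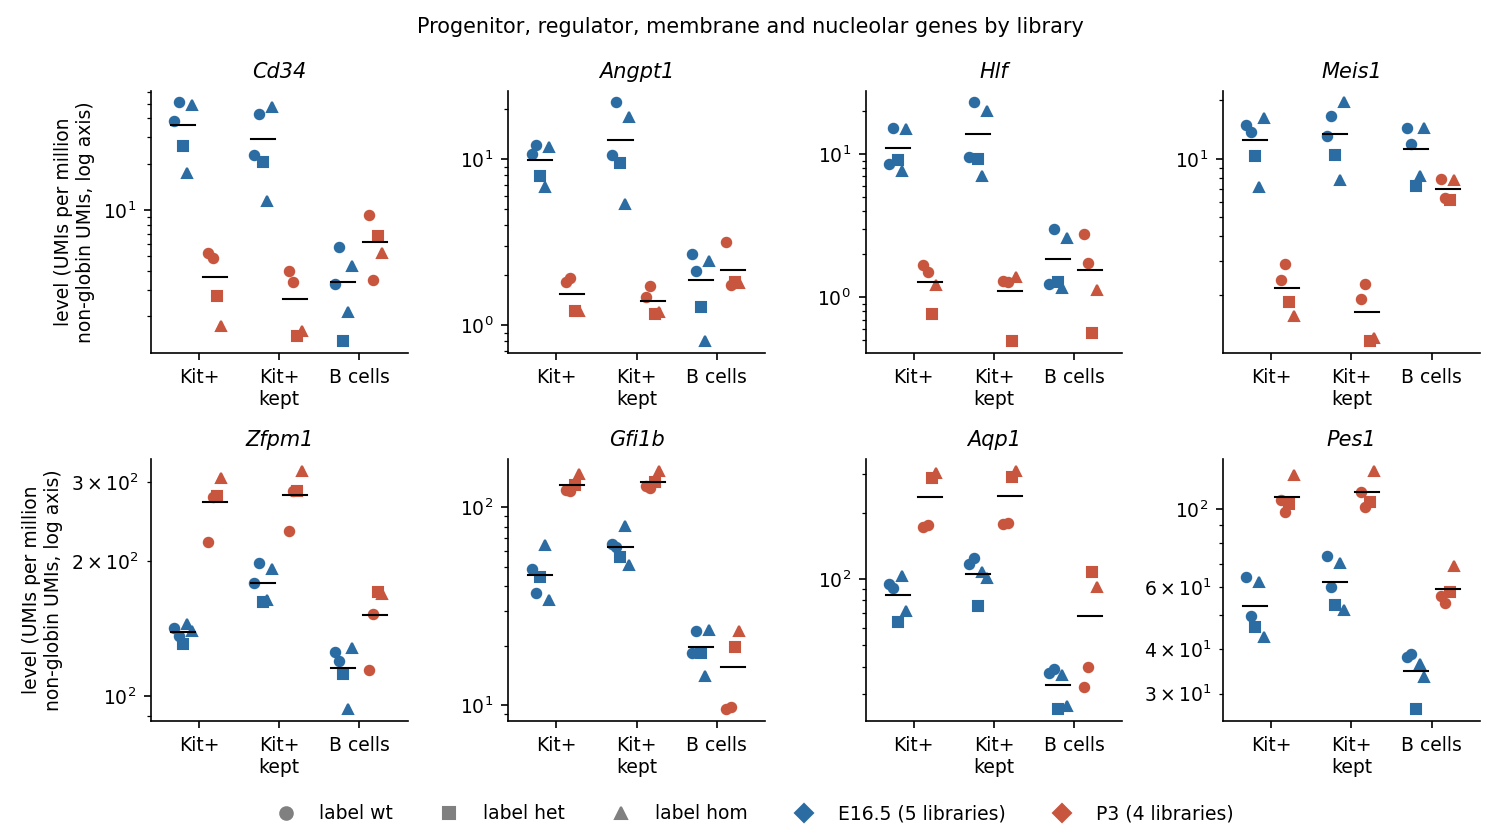
Levels of 8 genes (Cd34, Angpt1, Hlf, Meis1, Zfpm1, Gfi1b, Aqp1, Pes1; y axis, CPM, log scale) at E16.5 and P3 in all gated cells, in gated cells left after removing those with RNA of another lineage, and in B cells; each point is a library. Cd34 averages 36.4 CPM at E16.5 and 3.64 CPM at P3 in gated cells, while Zfpm1 averages 139 and 271 CPM.

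Genes of the erythropoietin and Kit pathways changed about as often as all genes, 58.3% of 24 tested against 57.3%. Of these, 4 rose and 10 fell (median -0.30), and 5 and 9 did so in cleared cells. The signalling parts Ptpn11, Grb2 and Stat5a were among the 4 that rose, with log2 changes of 0.81, 0.39 and 0.87. Stat5a overlapped between stages.

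Socs3, Bcl2l1, Pim1 and Tec were among the 10 that fell. Socs3, a feedback inhibitor of cytokine receptors, had 7.66, 16.4, 9.04, 6.11 and 13.7 CPM at E16.5 and 0.363, 0.319, 0.913 and 0 CPM at P3 (log2 change -4.46, adjusted p = 3.33e-05). Bcl2l1, the survival protein Bcl-xL, had 66.2, 109, 72.0, 43.5 and 108 CPM at E16.5 and 14.4, 14.6, 21.6 and 16.7 CPM at P3. Its log2 change was -2.02 (adjusted p = 5.33e-05), -2.29 in cleared cells and -1.20 relative to B cells. Pim1, a kinase induced by Stat5, averaged 199 and 57.3 CPM (log2 change -1.55), and its change did not differ from that in B cells by the test (adjusted p = 0.127). Tec, a kinase downstream of Kit, averaged 8.92 and 1.15 CPM (log2 change -2.61). All 4 genes fell in cleared cells as well.

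Genes of nucleoli and ribosome assembly were mostly higher at P3. Of 24 tested, 20 rose and 0 fell (median 0.89, edgeR), in cleared cells 14 rose and 1 fell (median 0.52), and relative to B cells 22 rose, or 9 with cleared cells. Relative to erythroid cells without Kit, 1 was higher and 0 lower. With the animals' sex as a term, 16 rose.

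Pes1, a factor for processing the large ribosomal subunit, had 64.2, 49.7, 46.3, 61.9 and 43.4 CPM at E16.5 and 106, 98.1, 103 and 125 CPM at P3. The stages did not overlap (log2 change 1.24, adjusted p = 6.82e-05; 0.98 in cleared cells). Relative to B cells its change was 0.44, which was not called with cleared cells (0.17, adjusted p = 0.224). Srm, the spermidine synthase placed in this list, rose from 170, 93.3, 153, 192 and 90.1 CPM to 376, 306, 316 and 430 CPM (log2 change 1.55, adjusted p = 0.000381). Mybbp1a averaged 145 and 270 CPM and Ppan 76.6 and 147 CPM, with log2 changes of 1.11 and 1.15 (0.81 and 0.81 in cleared cells). Npm1, the abundant nucleolar chaperone, was not called (log2 change 0.03, adjusted p = 0.917).

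S phase genes leaned the same way. Of 33 tested, 20 rose and 2 fell (median 0.45), in cleared cells 11 and 3 (median 0.20). Mcm7, a subunit of the replicative helicase, had 202, 187, 185, 213 and 186 CPM at E16.5 and 287, 315, 331 and 373 CPM at P3, without overlap (log2 change 0.96, adjusted p = 0.000108). Chaf1b, which loads histones on new DNA, averaged 29.6 and 53.9 CPM and Mcm3 173 and 264 CPM, with log2 changes of 1.08 and 0.83. In cleared cells the changes were 0.72 for Mcm7, 0.86 for Chaf1b and 0.65 for Mcm3, all called. The 2 that fell were E2f8, a repressor of late S phase (65.3 and 32.0 CPM, log2 change -0.80), and Rrm2, a subunit of ribonucleotide reductase (247 and 138 CPM, -0.61).

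G2 and M phase genes moved in both directions, 6 of 47 rising and 10 falling (median -0.05), 34.0% in all, below the 57.3% of all genes. Cdc25c, the phosphatase that starts mitosis, rose from 11.7 to 22.3 CPM on average (log2 change 1.15), and its change in B cells did not differ by the test (adjusted p = 0.737). Hmgb2 fell from 2493 to 962 CPM (log2 change -1.16) and Ect2, needed for cell division, from 56.4 to 24.5 CPM (-0.97). Mki67 was not called (log2 change 0.03).

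Relative to erythroid cells without Kit, cycle genes gained less or lost more at P3. Of the 33 S phase genes 21 were lower in that difference and 0 higher (edgeR; 19 and 0 with cleared cells). Of 47 G2 and M phase genes 41 were lower and 0 higher (31 and 1 with cleared cells). Among all 12024 genes 12.9% were lower and 3.94% higher. With cleared cells 840 of all 11071 genes were lower and 514 higher. The list counts are given under TMM factors only, and the split of all calls depended on the scaling, as given below. Mki67 shows the pattern in levels: it was 780 and 683 CPM in Kit-positive cells and 1403 and 2071 CPM in Kit-zero cells (difference of log2 changes -0.69, adjusted p = 0.00134). Mcm7 rose in both, more so in Kit-zero cells (206 and 485 CPM, difference -0.40, adjusted p = 0.00623).

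**Figure D4:**
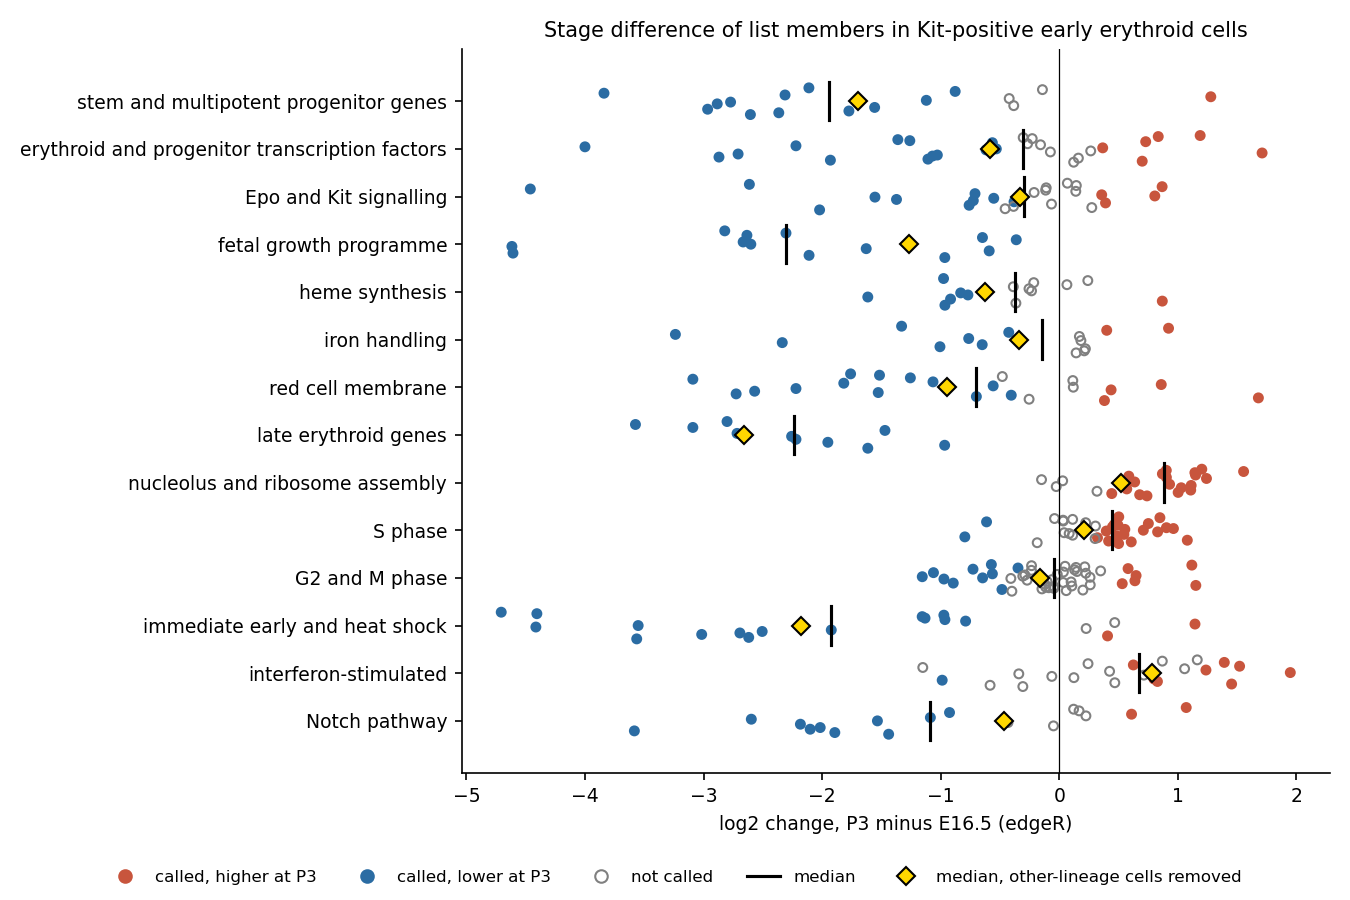
Fitted log2 change from E16.5 to P3 (x axis) of every tested member of 14 gene lists in Kit-positive erythroid cells; filled points passed an adjusted p of 0.05, black bars are list medians and gold diamonds the medians in cleared cells. Nucleolar genes have a median of 0.89, stem and multipotent genes -1.94 and late erythroid genes -2.24.

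Genes of late red cell maturation were lower at P3 throughout. Of 10 late erythroid genes tested 10 fell (median -2.24; 10 of 10 and -2.66 in cleared cells), but relative to B cells 7 fell and 2 rose. Slc4a1 had 590, 1181, 583, 353 and 1112 CPM at E16.5 and 41.6, 59.8, 118 and 86.8 CPM at P3, without overlap (log2 change -3.09, adjusted p = 9.29e-05). B cells, which do not make this red cell exchanger, held 1059 and 232 CPM. The change in gated cells exceeded that in B cells by -0.80 (adjusted p = 0.00322).

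The adult globins followed. Hba-a1 (log2 change -2.26), Hbb-bs (-2.72) and Hbb-bt (-3.30) fell, and Hba-a2 was not called (-2.69, adjusted p = 0.0599). Hba-a1 and Hba-a2 are near-identical copies between which reads can be split, so their separate values are uncertain. In B cells Hba-a1 averaged 54086 CPM at E16.5 and 24978 CPM at P3, above the 32044 and 5760 CPM of the gated cells at both stages. The embryonic globins Hba-x, Hbb-bh1 and Hbb-y also fell (log2 changes -4.28, -5.36 and -5.78), from low levels of 11.6, 3.30 and 20.3 CPM at E16.5, where B cells held 14.7, 3.96 and 18.5 CPM. Hbb-y overlapped between stages, and the change in Hbb-bh1 did not differ from that in B cells by the test (adjusted p = 0.192). With the animals' sex as a term, the changes were -3.92 for Hba-x, -5.05 for Hbb-bh1, -4.50 for Hbb-y and -1.355 for Hba-a2.

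Of 14 heme synthesis genes, 1 rose and 6 fell (median -0.38), and in cleared cells 0 rose and 10 fell (edgeR, median -0.63). The share called in all gated cells was below the 57.3% of all genes. Against the change in B cells the balance was reversed, 10 higher and 2 lower (7 and 1 with cleared cells). Alas2 had 231, 366, 317, 196 and 417 CPM at E16.5 and 74.0, 73.7, 87.3 and 107 CPM at P3, without overlap (log2 change -1.62, adjusted p = 0.000114). Its change exceeded that in B cells (480 and 350 CPM) by -1.12. Cpox, a mid-pathway enzyme, averaged 910 and 456 CPM (log2 change -0.77), but fell less than in B cells (693 and 146 CPM, difference 1.45, adjusted p = 0.000127). Alad was the 1 that rose, with 865, 280, 610, 531 and 258 CPM at E16.5 and 592, 744, 860 and 1052 CPM at P3. Its stages overlapped (log2 change 0.87, adjusted p = 0.0481), and it was not called in cleared cells (adjusted p = 0.181).

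Of 14 iron genes, 2 rose and 7 fell (median -0.14), and in cleared cells 1 rose and 6 fell. The shares called were close to those of all genes (57.3%, and 44.7% in cleared cells). Set against B cells, 8 were higher and 3 lower (6 and 3 with cleared cells). Among the lower ones, Hmox1 and Slc40a1 had higher B cell levels at P3 (37.3 and 102 CPM, 43.1 and 86.3 CPM). Tfrc, the transferrin receptor, had 547, 910, 569, 410 and 812 CPM at E16.5 and 136, 223, 314 and 210 CPM at P3 (log2 change -1.33, adjusted p = 0.000727; -1.71 in cleared cells). It fell less than in B cells (difference 0.57, adjusted p = 0.000233), a difference that was not called with cleared cells (0.24, adjusted p = 0.189). Slc25a37, the mitochondrial iron carrier mitoferrin, averaged 1034 and 93.6 CPM (log2 change -3.24; -3.57 in cleared cells), and its change did not differ from that in B cells by the test (adjusted p = 0.196). Tfr2, a second transferrin receptor that partners Epor, went up from 39.3, 44.6, 35.1, 40.8 and 35.2 CPM to 61.4, 49.3, 65.3 and 78.3 CPM, without overlap (log2 change 0.92, adjusted p = 0.000184). Tfr2 also rose in cleared cells (0.40) and relative to B cells (1.93).

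Red cell membrane genes fell as a rule, 13 of 21 against 4 that rose (median -0.70; 15 and 2 in cleared cells). Relative to B cells the balance was the other way, 12 higher and 4 lower (7 and 4 with cleared cells). Aqp1, the water channel that carries the Colton blood group, had 95, 91.0, 63.9, 103 and 71.6 CPM at E16.5 and 172, 176, 288 and 304 CPM at P3. Its stages did not overlap (log2 change 1.68 ± 0.19 SE, adjusted p = 5.08e-05; 1.31 in cleared cells). Relative to B cells its change was 0.75, which was not called with cleared cells (0.39, adjusted p = 0.161). Kcnn4, the Gardos potassium channel, averaged 92.8 and 144 CPM (log2 change 0.86; 0.42 in cleared cells).

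Genes of the fetal growth programme fell in 13 of 13 cases (median -2.31), and in 10 of 11 in cleared cells (median -1.27). Some of the 13 passed the count filter through the embryonic libraries alone, so only a fall could be called. Igf2 had 198 UMIs at E16.5 and 5 at P3, Mycn 173 and 18, and Plagl1 220 and 21. The count and the median include them. Relative to B cells 9 of 14 were lower and 2 higher, or 3 and 2 with cleared cells. Hepatocyte marker sums were also higher at E16.5, as given above. The mesenchymal genes Col1a1, Col3a1 and Reln fell too (log2 changes -3.68, -3.49 and -1.76), while Dcn was not called (-1.14). The part of RNA from these cells in this result was not tested. Dlk1, an imprinted growth gene, averaged 49.2 and 1.64 CPM (log2 change -4.61; -3.07 in cleared cells) and was 29.0 and 5.43 CPM in B cells. In cleared cells Dlk1 averaged 14.3 CPM at E16.5, and its difference from B cells was not called (-0.78, adjusted p = 0.0881). Cdkn1c and Igf2 also had lower embryonic levels once cells were cleared, 16.2 instead of 36.4 CPM and 1.33 instead of 3.98 CPM. Hmga2, a chromatin protein of fetal progenitors, had 88.5, 59.2, 43.0, 38.6 and 90.7 CPM at E16.5 and 20.8, 15.7, 18.7 and 14.4 CPM at P3. The stages did not overlap (log2 change -1.63, adjusted p = 0.00024), and B cells showed a change that did not differ by the test (adjusted p = 0.46). Lin28b, the RNA-binding protein that holds back let-7, had 32.3, 30.2, 23.1, 26.9 and 28 CPM at E16.5 and 15.2, 11.9, 20.8 and 13.9 CPM at P3 (log2 change -0.65, adjusted p = 0.00281). Lin28b fell less than in B cells (45.2 and 11 CPM, difference 1.31).

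Immediate early genes were strongly lower at P3. Of 19 immediate early and heat shock genes tested, 15 fell and 2 rose (median -1.92), in cleared cells 15 and 1, and relative to B cells 15 were lower and 4 higher. Nr4a1, a nuclear receptor induced within minutes of a stimulus, averaged 43.2 and 1.53 CPM (log2 change -4.41, adjusted p = 2.22e-06), and 14.7 and 4.72 CPM in B cells. Fos had 300, 380, 279, 271 and 326 CPM at E16.5 and 51.6, 61.8, 39.1 and 31.9 CPM at P3 (log2 change -2.51), while B cells held 89.1 and 90.5 CPM. Dusp1, a phosphatase that ends MAP kinase signals, had 167, 196, 147, 159 and 158 CPM at E16.5 and 22.5, 21.5, 12.5 and 11.5 CPM at P3 (log2 change -3.02, adjusted p = 3.56e-06), against 92.1 and 41.8 CPM in B cells. These genes can respond to tissue handling, which differed between stages, and its part in the result was not tested. Hspa8, the constitutive heat shock chaperone, was among those that rose (log2 change 1.14).

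Of 22 interferon-stimulated genes, 8 rose and 1 fell (median 0.67), in cleared cells 6 and 2 of 19 (median 0.78), and with sex as a term 4 and 2. Among all genes 57.3% were called (27.7% higher, 29.6% lower), and 44.7% in cleared cells (21.9% and 22.8%). The share called in this list was thus below that of all genes. Gbp7, a guanylate-binding protein, had 13.8, 17.2, 13.9, 16.1 and 16 CPM at E16.5 and 27.6, 37.3, 34.2 and 46.2 CPM at P3, without overlap (log2 change 1.45, adjusted p = 2.49e-05). B cells held 22.4 CPM at both stages. Ifitm1 was the gene that fell (69.9 and 30.0 CPM, log2 change -0.99). Of 11 genes of antigen presentation by class I molecules, 4 rose and 4 fell (3 and 2 of 10 in cleared cells), among them H2-K1 up (67.0 and 145 CPM, log2 change 1.33) and H2-T23 down (40.0 and 11.6 CPM, -1.54). H2-K1 rose more in B cells (73.8 and 357 CPM, difference -0.93).

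Among 18 glycolysis genes, 5 rose and 6 fell (median 0.29), and in cleared cells 3 rose and 6 fell (median 0.08). The shares called were close to those of all genes (57.3%, and 44.7% in cleared cells). Slc2a1, the glucose transporter Glut1, had 111, 180, 103, 53.0 and 228 CPM at E16.5 and 3.92, 5.34, 3.35 and 2.43 CPM at P3. It was far lower in every P3 library (log2 change -4.84, adjusted p = 1.77e-05; -5.15 in cleared cells), and B cells held 184 and 16 CPM. Bpgm, which makes the hemoglobin regulator bisphosphoglycerate, averaged 246 and 54.9 CPM (log2 change -1.95; -2.27 in cleared cells). The hexokinase gene Hk1 rose from 136 to 213 CPM (0.86) and Pfkm, a phosphofructokinase, from 19.4 to 38.9 CPM (1.20), both more than in B cells (differences 1.28 and 1.34; 0.82 and 0.84 with cleared cells).

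In the Notch pathway, in which Jag1 is a ligand, 2 of 17 tested genes rose and 10 fell (median -1.09), and in cleared cells 1 of 12 rose and 6 fell. Markers of endothelial cells, which also use this pathway, moved with it: all 5 (Cdh5, Kdr, Lyve1, Pecam1 and Stab2) fell, and they summed to 39.9 to 173 CPM in the embryonic libraries, against 4.69 to 13.8 CPM at P3. In cleared cells these sums were 4.51 to 24.5 and 3.18 to 5.89 CPM, and their part in the Notch result was not tested. The receptor gene Notch2 had 37.5, 49.6, 45.6, 41.6 and 49.0 CPM at E16.5 and 21.1, 22.1, 17.8 and 9.55 CPM at P3, without overlap (log2 change -1.09, adjusted p = 0.00115; -1.42 in cleared cells). Notch1 averaged 22.4 and 2.94 CPM (log2 change -2.60; -2.48 in cleared cells), with 40.1 and 28.6 CPM in B cells. Hes1, the classical target, averaged 13.5 and 0.853 CPM (log2 change -3.58), with 71.5 and 19.4 CPM in B cells. In cleared cells Hes1 averaged only 3.36 and 0.514 CPM and was not tested between stages, and its difference from B cells was not called there (-0.28, adjusted p = 0.844; -1.65 and 0.0138 in all gated cells). Rbpj, the DNA-binding partner of Notch, was not called (36.8 and 34.3 CPM). Nrarp, also on this list, rose with overlapping stages (5.67 and 7.34 CPM, log2 change 0.61, adjusted p = 0.0307). It was not called in cleared cells (0.50, adjusted p = 0.111), and relative to B cells its change was 1.23 (adjusted p = 0.00235). Jag1 itself gave 57 UMIs in all gated cells at E16.5 and 2 at P3, too few to test. Hes5 (54 UMIs at E16.5 and 8 at P3) and Jag2 (65 and 10) were among the 10 that fell. Both passed the count filter through the embryonic libraries alone, so only a fall could be called.

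By size alone, the largest changes included many genes of other cells. Afp (log2 change -5.99) and Alb (-5.47) are hepatocyte genes, Vpreb1 (-5.31) and Igll1 (-4.96) B cell precursor genes, and Ccl4 (-6.53) and Ccl3 (-5.47) chemokine genes. Of 9 hepatocyte markers 9 fell, of 7 B cell markers 7 fell and of 8 neutrophil and promyelocyte markers 6 fell. In cleared cells 8 hepatocyte markers fell, while 3 B cell markers rose and 2 fell. Elane, a granule protease gene, changed sign there (log2 change 0.96, adjusted p = 0.248). Elane and several of these markers were among the genes used for clearing, so nothing is read from their values in cleared cells. Atp6v0c (1.45 and 274 CPM; 1.62 and 341 CPM in B cells), Mzb1 (131 and 0.0363 CPM; 1086 and 2.27 CPM in B cells) and Ptp4a1 (85.9 and 0.618 CPM; 83.7 and 0.792 CPM in B cells) went nearly from absent to present or back in both cell types. The gene lists of the stages differ, and their part in these values was not tested.

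A few large changes stood out against the B cells. Sdsl, a serine dehydratase-like enzyme gene, had 13.1, 5.14, 16.8, 25.2 and 4.62 CPM at E16.5 and 102, 116, 109 and 118 CPM at P3, with 2.00 and 5.69 CPM in B cells. Its stages were far apart (log2 change 3.27). Prss50, a protease gene, had 11.4, 2.46, 8.56, 22.2 and 8.75 CPM at E16.5 and 100, 37.3, 93.9 and 88.9 CPM at P3 (log2 change 3.08), with 0.587 and 1.90 CPM in B cells. With cleared cells the differences from B cells were not called for Sdsl (1.38, adjusted p = 0.0534) or Prss50 (0.99, adjusted p = 0.111). Stard10, a lipid transfer protein gene, had 32.9, 31.5, 13.8, 15.7 and 26.5 CPM at E16.5 but 128, 45.2, 343 and 232 CPM at P3, where the libraries differed among themselves by more than the embryonic ones (log2 change 3.17).

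The comparison with erythroid cells that met every condition but had no UMI of Kit asked which stage changes differed between these neighbours. Kit-zero cells held RNA of other lineages too. S100a8 averaged 15797 CPM there at E16.5 and 6731 CPM at P3, against 8396 and 2463 CPM in Kit-positive cells. Alb averaged 3190 and 97.2 CPM, against 1697 and 32.0 CPM. Elane was lower in Kit-zero cells at E16.5, at 116 CPM against 374 CPM. Of 12024 genes, 16.9% passed, 474 with a change higher and 1553 lower in Kit-positive cells. This split depended on the scaling: 23.4% of the calls were higher with TMM, 36.3% with relative log expression factors, 39.5% with globin genes left out and 34.9% with DESeq2. Without P3_het1 the calls fell from 2027 to 1307. With cleared cells they were 1354, which kept 46.3% of the original ones. The named genes below kept their calls under each of these scalings. With cells thinned to 2000 UMIs, where 275 genes were called, 9 of these 12 genes lost the call, and Mt1, Mt2 and Btg2 kept it.

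The metallothionein genes Mt1 and Mt2, which code for zinc-binding proteins, were among the genes with the smallest p. In Kit-positive cells Mt1 had 1838, 2372, 2321, 1698 and 3234 CPM at E16.5 and 1527, 1225, 1433 and 1337 CPM at P3. In Kit-zero cells it had 3676, 4474, 3754, 2658 and 7110 CPM at E16.5 but only 698, 446, 490 and 448 CPM at P3. Mt1 was thus lower in Kit-positive than in Kit-zero cells in all 5 embryonic libraries, and higher in all 4 at P3. The log2 changes differed by 2.40 ± 0.13 SE (adjusted p = 3.27e-07; 2.46 with cleared cells), and in B cells Mt1 averaged 1735 and 113 CPM. Mt2 behaved alike, at 1289 and 643 CPM in Kit-positive and 2063 and 240 CPM in Kit-zero cells (difference 2.15).

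Grb10, an imprinted adaptor that binds Kit and the insulin receptor, had 66.2, 71.2, 55.4, 82.4 and 67.5 CPM at E16.5 and 40.5, 37.6, 39.4 and 38.2 CPM at P3 in Kit-positive cells. In Kit-zero cells it went from 55.4, 60.3, 49.1, 54.2 and 54.8 CPM to 15.1, 10.7, 11 and 11.8 CPM. It fell in both, and less with Kit (difference 1.47, adjusted p = 1.38e-05). Hadh, a fatty acid oxidation enzyme, averaged 46.3 and 55.6 CPM with Kit and 42.5 and 22.9 CPM without (difference 1.25). Pabpc1, the poly(A)-binding protein, averaged 1411 and 770 CPM with Kit and 2554 and 760 CPM without (0.98), and the dipeptidase gene Pepd 33.7 and 16.1 CPM against 80.4 and 12.7 CPM (1.69).

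The opposite difference was found for Cdkn1a, Btg2, Gch1, H1f0, Mpo and Nkg7. Cdkn1a, the inhibitor p21, averaged 20.3 and 5.45 CPM in Kit-positive cells and 16.1 and 22.0 CPM in Kit-zero cells (difference -2.22, adjusted p = 4.69e-06). Btg2, an antiproliferative gene that is also on the immediate early list, averaged 131 and 18 CPM with Kit and 247 and 144 CPM without (-1.98). Gch1, which makes the tetrahydrobiopterin precursor, averaged 6.43 and 7.03 CPM with Kit, while without Kit it went from 8.18 to 19.7 CPM in the embryonic libraries to 56.4 to 117 CPM at P3 (difference -2.46, adjusted p = 2.4e-05). The linker histone gene H1f0 averaged 53.3 and 41.1 CPM with Kit and 56.3 and 112 CPM without (-1.25). The granule genes Mpo (655 and 110 CPM with Kit, 145 and 105 CPM without, difference -1.92) and Nkg7 (32.8 and 10.2 CPM, 9.57 and 16.7 CPM, -2.35) are markers of other lineages and were among the genes used for clearing. With cleared cells Mpo differed by -1.13 (adjusted p = 0.0162) and Nkg7 was not called (-0.79, adjusted p = 0.195).

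**Figure D5:**
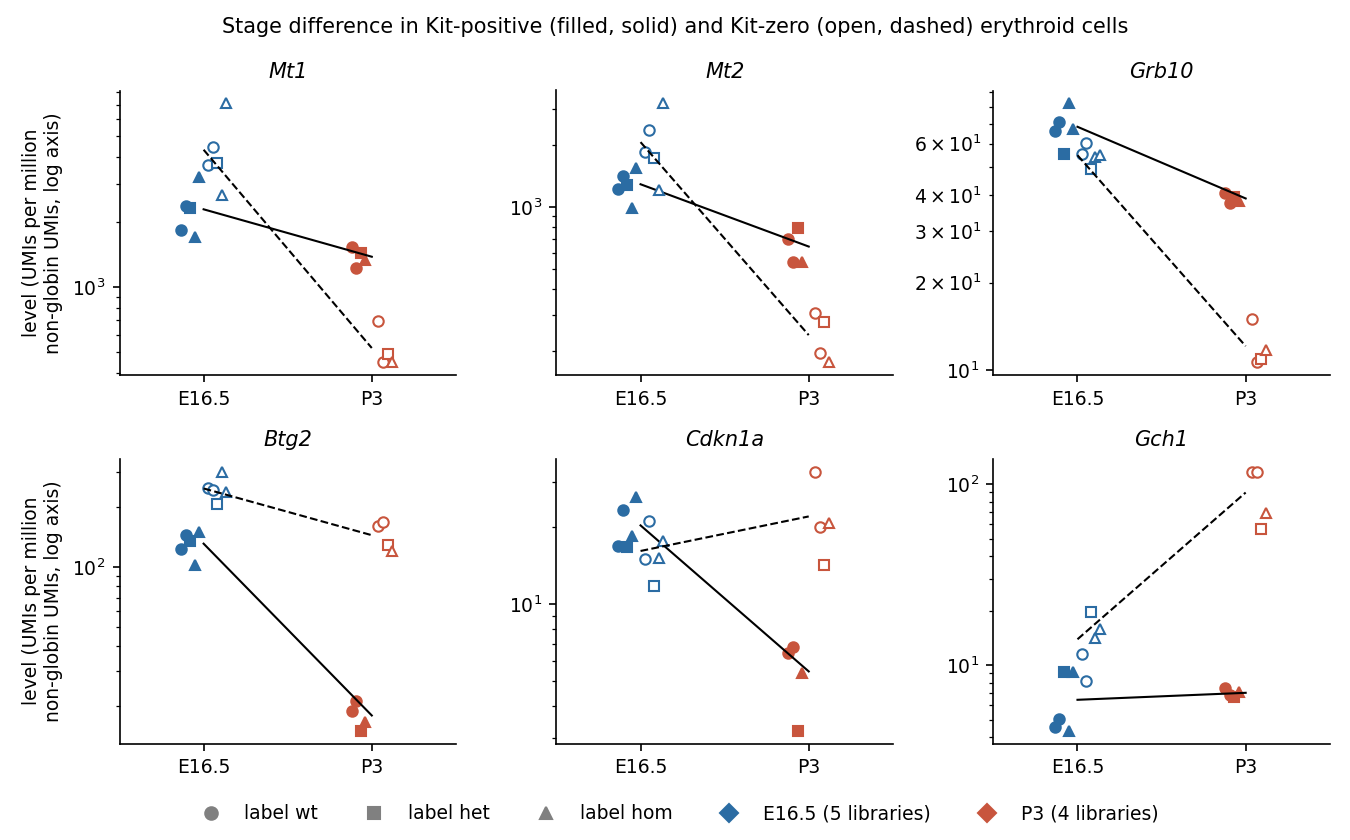
Levels of Mt1, Mt2, Grb10, Btg2, Cdkn1a and Gch1 (y axis, CPM, log scale) at E16.5 and P3; filled points and solid lines are Kit-positive erythroid cells, open points and dashed lines Kit-zero erythroid cells, each point a library and each line the means. The lines for Mt1 cross, from 2293 and 4334 CPM at E16.5 to 1381 and 520 CPM at P3.

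At E16.5 the effect of the Ndr allele was asked of E16_hom1 and E16_hom2 against the other 3 libraries. Kit-positive cells were 2.70% ± 0.733 (SD, n = 2) of the barcodes in homozygotes and 3.60% ± 1.12 (SD, n = 3) in the others. These overlapped (two-sided exact permutation p = 0.6, where 0.2 is the smallest possible). Of 12420 genes tested with edgeR, 0 passed (0.0%), 75 (0.604%) had an unadjusted p under 0.05, and DESeq2 also called 0 with 69 under 0.05. Both counts lie far below the share of 0.05 that evenly spread p-values would give. With the replicate number as a block 433 genes had an unadjusted p under 0.05 with edgeR, and 0 passed. E16_wt2 and E16_hom2, both replicate 2, had the lowest shares of gated cells with all 4 gate genes (11.4 and 9.29%). Whether libraries of the same replicate number resembled each other within E16.5 was not tested. The genotype labels could not be checked by expression, since the allele is a missense change and Jag1 gave few UMIs.

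Among genes of at least 20 CPM, those with the smallest p were the macrophage complement genes C1qb (26.2 CPM in homozygotes, 11.5 CPM in the others, log2 difference 1.20) and C1qc (23.5 and 10.6 CPM, 1.17), with the heme oxygenase gene Hmox1 (40.3 and 18.7 CPM, 1.16). On the lower side were the neutrophil protease genes Mmp8 (29.9 and 47.2 CPM, -0.64) and Mmp9 (13.7 and 22.2 CPM, -0.66), and the actin regulator gene Cap1 (39.2 and 68.4 CPM, -0.80). All 6 had an adjusted p of 1 with edgeR. The ranges of the homozygous and other libraries did not overlap for 5.87% of all genes. In cleared cells, defined in part by C1qb and C1qc, these and Hmox1 differed by 0.66, 0.72 and 0.53, Cap1 by -0.59, and Mmp8 turned to 0.0108. The test was also run on simulated counts of this design, with 11 false among 92 calls. It found 9.28% of genes changed by 1 and 73.5% of those changed by 2 on the log2 scale. A difference of 1 was thus seldom found at this size. The simulation drew each gene independently, without differences that many genes of a library share. It may therefore overstate what the test could find in the real libraries.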

How the data were processed

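Single-cell RNA counts of whole mouse livers were taken as gene by barcode matrices of UMI counts, deposited by the authors for 12 samples. Per the submitters' processing notes, Cell Ranger 2.1.1, R 4.1.2, Seurat and mm10 were used, whereas the file headers name software version 3.1.0 at E16.5 (31053 genes) and 3.0.2 at P3 (22597 genes). The deposited counts were used as they are, and only genes in both lists entered the stage fits.

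Barcodes, gates and exclusions are given with the results. The cells, gene lists and named genes were chosen with earlier results of these data known. Counts of gated cells were summed per library, each taken as 1 animal as the design text has it. They were fitted with edgeR 4.0.16 (robust quasi-likelihood test, TMM factors, filterByExpr with a minimum count of 10, R 4.3.3) and adjusted by Benjamini-Hochberg. The stage comparison set 4 libraries at P3 against 5 at E16.5, and the genotype comparison 2 homozygous against 3 other libraries at E16.5. Given the shared barcodes, the libraries at P3 may not be separate animals, which every stage p-value assumes. Differences between cell gates used a gate by stage term with the library as a block. Shares were compared with two-sided exact permutation tests over libraries (scipy 1.17.1), and their intervals are exact binomial at 95%.

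Alternatives were DESeq2 1.42.0, relative log expression factors, no filter, doublets removed with Scrublet (scanpy 1.11.5), cells thinned to 2000 or 5000 UMIs and gated again, 3 of 4 genes, globin genes left out, a sex term, the replicate number as a block, and each library left out. The thinning to 5000 UMIs, the removal of cells with RNA of another lineage and the B cell reference were chosen after seeing the data. Marker shares used 10 classes, each with a minimum share of UMIs.

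Named genes were the gate genes, the 12 largest changes per direction at 50 CPM or more with stages apart, the 3 called members of smallest p in each list of at least 5, every globin, the 6 interaction genes of smallest p per direction, and the 3 genotype genes of smallest p per direction. Other list members named were chosen after their values were seen. Some genes that these rules name are not reported here. Counts were also simulated for the stage comparison (11375 genes, 6 false among 164 calls), each gene drawn independently. There 64% of genes changed by 1 on the log2 scale and 95.9% of those changed by 2 were found. The promoter windows are from RefSeq (GRCm38.p6). Replicate numbers did not pair libraries across stages: the correlations of deviations ran from -0.18 to 0.17.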

Additional observations from a re-analysis of the deposited data

Results flagged for a closer look

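Among 217 sets of 4 or 5 libraries examined for a library far from the rest, 9 held one, and chance alone is taken to give about 1 in 20. The 9 sets do not exceed that share and are listed as values only. P3_wt1 stood apart for 4 genes: the pseudogene Rpl9-ps6 at 206.51 CPM (35.6 to 45.7 CPM in the other P3 libraries), Alb at 65.9 CPM (17.5 to 22.5), Mcm3 at 206.29 CPM (276 to 289.8) and Pgam1 at 128.61 CPM (98.4 to 101). P3_wt2 had 583 CPM of BC004004 (82.2 to 165). At E16.5, E16_hom2 had 204.9 CPM of Ifitm2 (153 to 165), E16_wt1 45.1 CPM of H2-K1 (68.9 to 76.6), E16_hom1 20017 CPM of Hba-a1 (33070 to 37422) and E16_het1 39.8 CPM of Hadh (46.5 to 48.6).

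The stage change differed between Kit-positive and Kit-zero erythroid cells, by the test of the difference itself, for 12 named genes. On the log2 scale it was higher with Kit for Mt1 (2.40), Mt2 (2.15), Pepd (1.69), Grb10 (1.47), Hadh (1.25) and Pabpc1 (0.98). It was lower with Kit for Gch1 (-2.46), Nkg7 (-2.35), Cdkn1a (-2.22), Btg2 (-1.98), Mpo (-1.92) and H1f0 (-1.25).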

How the results depend on the processing

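The difference in the share of barcodes between stages (-0.505 percentage points) turned positive when cells were thinned to 2000 UMIs (0.104), thinned to 5000 UMIs (1.59), held to 3 of 4 genes (0.713) or cleared of RNA of another lineage (0.506), and ran from -0.770 to -0.0990 with single libraries left out. The cause was not tested. The rise in the Kit-positive share of erythroid cells (8.74 points) no longer passed 0.05 after thinning to 2000 UMIs (1.95), removing doublets (7.89) or requiring 3 of 4 genes (13.1), and ran from 5.81 to 11.7 with single libraries left out, where it passed only without P3_hom1. Removing P3_wt1 gave 5.81 with an exact permutation p of 0.107.

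Stage calls (6588) were 679 and 3325 with cells thinned to 2000 and 5000 UMIs, where fewer genes were tested (1804 and 7711), and 5693 to 6467 with single libraries left out. Without both P3_wt libraries there were 5452. With the replicate number as a block edgeR gave 6638 stage calls, which kept 98.01% of the original ones (Adgre1 was the named gene that lost its call), and 0 genotype calls with 433 genes at an unadjusted p under 0.05. Calls against Kit-zero cells (2027) were 275 after thinning to 2000 UMIs and 1307 to 2594 with single libraries left out, 1307 without P3_het1. Calls against B cells (6750) were 3643 with cleared cells.

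Of the named genes, Elane turned to 0.96 in the stage comparison and Mmp8 to 0.0108 in the genotype comparison with cleared cells. Relative to B cells, cleared cells turned Igkc (0.63), Vpreb1 (1.12), Igll1 (0.28), Cdkn1c (0.69), Cdc25c (-0.15) and Ebf1 (1.45). Elane, Vpreb1, Igll1 and Ebf1 were among the genes used for clearing. Of the repeats for 87 stage genes, 1710 kept direction and call and 31 lost the call, and for the 12 genes against Kit-zero cells these were 182 and 10, of which 9 were losses after thinning to 2000 UMIs and 1 (Nkg7) with cleared cells. Of the 87 genes compared with B cells, 53 kept direction and call with cleared cells, 27 lost the call and 1 gained it. Depth limits the shares of cells with a UMI, the thinned gates and genes of a few CPM.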
